A study of Mus musculus with 6 samples.

Results

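The linker histone genes *H1f0* and *H1fx*, the H2A variant genes *H2afz*, *H2afv*, *H2afx*, *H2afy* and *H2afy2*, the H3 variant genes *H3f3a* and *H3f3b*, and the CDK inhibitor gene *Cdkn1a* were examined in the heart. They were chosen by name, as histone genes with polyadenylated transcripts and a CDK inhibitor gene known to respond to butyrate, and their GENCODE M21 symbols were matched to the Ensembl identifiers of the count tables. All 10 were found among the 54232 genes in the tables, and all 10 passed the filter on low counts. RNA of the heart ventricle was sequenced from 3 mice given Tributyrin and 3 mice given vehicle, which the labels call PBS. All 6 were C57BL/6J wild-type mice on western diet (WD), needle-fed from the end of week 15 of the diet for 3 weeks, in cycles of 2 days on and 2 days off, and the Tributyrin dose was 5 g per kg of body weight. The age and sex of these mice are not given in the labels, and each library is labelled as 1 mouse.

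Histone variants are made outside S phase from genes with introns or polyadenylated transcripts, so cells that do not divide, such as adult cardiomyocytes, can still replace histones in their chromatin. Tributyrin is a triglyceride that releases butyrate, an inhibitor of histone deacetylases (HDACs), the enzymes that remove acetyl groups from histone tails. In cultured cells, HDAC inhibitors are known to raise the linker histone gene *H1f0* and *Cdkn1a*, which encodes the cell cycle inhibitor p21. The comparison of Tributyrin with vehicle gives the levels of these genes in the heart after oral treatment.

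None of the 10 genes passed the test for a difference between Tributyrin and vehicle. The log2 fold changes of Tributyrin over vehicle lay between -0.06 for *H3f3b* and 0.23 for *H1fx*, and *H1f0* and *Cdkn1a* were at 0.01 and 0.11. The 95% interval of the fold change stayed within 1.5-fold in either direction for 9 of the 10 genes, the exception being *H1fx*, which had few reads, and within 2-fold for all 10.

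The libraries held 20369746 to 32734485 counts on genes. Mitochondrial transcripts took 23.6% to 26.5% of the counts with vehicle and 25.9% to 28.8% with Tributyrin. Marker sums are given in CPM, which are counts scaled to the library total over the tested genes multiplied by the library's TMM factor. The 7 cardiomyocyte markers (*Myh6*, *Tnnt2*, *Ttn* and others) summed to between 52150 and 54380 CPM with vehicle and between 49280 and 55290 CPM with Tributyrin. Of their log2 fold changes of Tributyrin over vehicle, 4 were above 0 and 3 below. At an unadjusted p under 0.05 in edgeR, *Tnnt2* (0.23) and *Tnni3* (0.21) were higher and *Actc1* (-0.21) was lower. The 6 lymphocyte markers summed to at most 1.18 CPM, so the libraries carried the markers of their labelled tissue. The 8 atrial markers summed to 89.1 to 234.4 CPM with vehicle and 59.7 to 98.9 CPM with Tributyrin, and 5 of the 7 tested were lower with Tributyrin at an unadjusted p under 0.05. In counts divided by the library's size factor, *Myl7* had 1746, 1483 and 111 with vehicle and 194, 480 and 197 with Tributyrin. For *Sln*, *Mybphl*, *Myl7* and *Myl4*, vehicle replicates 1 and 2 were above every Tributyrin mouse and vehicle replicate 3 was below every one. *Nppa* was highest in vehicle replicate 3, and for *Dkk3* the groups lay apart. The 10 proliferation markers summed to 6.40 to 12.5 CPM with vehicle and 5.70 to 7.71 CPM with Tributyrin. Of the 5 tested, 2 were higher and 3 lower, and only *Mcm5* (-0.74, lower) had an unadjusted p under 0.05. The 7 fibroblast markers summed to 867 to 979 CPM with vehicle and 777 to 961 CPM with Tributyrin. Their median log2 fold change was -0.30, with 2 higher and 5 lower. *Col1a1* (-0.46) and *Lum* (-0.31) were lower at an unadjusted p under 0.05. The others were *Col3a1* (-0.39), *Col1a2* (-0.30), *Pdgfra* (-0.01), *Dcn* (0.01) and *Tcf21* (0.07). The 6 smooth muscle and pericyte markers summed to 707 to 758 CPM with vehicle and 720.2 to 859 CPM with Tributyrin. Their median log2 fold change was 0.10, with 4 higher and 2 lower (*Pdgfrb* at -0.19 and *Cspg4* at -0.12). Only *Myh11* (0.59, higher) had an unadjusted p under 0.05. Over all genes tested, 1.97% were higher and 2.28% lower at that threshold. The part of atrial tissue, of these cell types, of proliferating cells and of the mitochondrial share in the values below was not tested. In ventricle tissue, fewer cells of a type and less RNA per cell cannot be told apart.

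Most of these genes belong to pairs of close relatives, and the reads were 50 bases long, so it matters whether a read can name its gene. *H3f3a* and *H3f3b* encode the same protein, the replacement histone H3.3, in different bases. Their coding sequences, both 408 bases, were identical at 313 bases (76.7%), and the longest run of identical bases was 23. The stretch from coding base 28 to base 117 encodes part of the H3 tail, whose lysines are acetylated, and is shown with the 16 bases that differ in capitals:
*H3f3a*: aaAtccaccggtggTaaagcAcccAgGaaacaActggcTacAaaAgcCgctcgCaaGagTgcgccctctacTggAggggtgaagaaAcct
*H3f3b*: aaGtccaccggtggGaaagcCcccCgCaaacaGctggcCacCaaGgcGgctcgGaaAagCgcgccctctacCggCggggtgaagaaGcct
*H2afz* and *H2afv* encode H2A.Z.1 and H2A.Z.2, which differ at only a few residues. Their coding sequences, both 384 bases, were identical at 304 bases (79.2%), with a longest identical run of 14. The stretch from coding base 127 to base 216 is shown in the same way, again with 16 differing bases in capitals:
*H2afz*: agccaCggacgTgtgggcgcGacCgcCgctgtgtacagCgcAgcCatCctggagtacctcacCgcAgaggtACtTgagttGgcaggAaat
*H2afv*: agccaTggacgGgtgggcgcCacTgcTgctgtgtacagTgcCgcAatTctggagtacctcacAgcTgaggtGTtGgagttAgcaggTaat
The pair *H2afy* and *H2afy2* was 70.7% identical over 1108 aligned coding bases, and the pair *H1f0* and *H1fx* was 56.1% identical over 533. In all 4 pairs, 0 stretches of 50 bases were shared between the coding sequences, so no exact 50-base coding read could come from both genes of a pair.

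Reads of other genes are a different matter. Of all 50-base stretches of the annotated transcripts, the share that also occurs in the transcripts of another gene on either strand was 0.0% for *H2afv*, 5.68% for *H1f0*, 5.94% for *H2afy*, 6.86% for *H3f3b*, 8.49% for *Cdkn1a*, 9.66% for *H2afx*, 14.04% for *H1fx* and 15.4% for *H2afy2*. It was highest for *H3f3a* (27.1%, shared with 193 genes, most of the stretches with the lincRNA *Gm17275* on the opposite strand and with H3.3 pseudogenes) and *H2afz* (35.4%, shared with 6 genes). *H2afz* shared 620 stretches with *Tmcc1* and 338 with the processed pseudogene *Gm8203*, which had 0 counts in every library. *H2afy2* overlaps 233 exonic bases of *Aifm2*, a gene on the opposite strand with 590 to 1049 counts per library, against 85 to 164 for *H2afy2* itself. The library kit keeps strand, but the strand setting of the counting is not given in the sources used here, so the values of *H2afy2*, *H2afz* and *H3f3a* are the least certain on this account.

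Promoter sequence was taken from RefSeq (GRCm38.p6) as the 250 bases before each annotated start, for 9 of the 10 genes. The GC box, searched as GGGCGG on both strands with overlaps counted, is the binding motif of Sp1, and GC boxes near the start of *Cdkn1a* are known for their part in its response to HDAC inhibitors. It was found in 6 of the 9 genes (*Cdkn1a*, *H3f3a*, *H2afy*, *H1fx*, *H2afz* and *H2afv*), and 32.7% of the 32851 promoters of the table hold it. *H3f3a* had 4 matches, of which 2 overlap. *Cdkn1a* has 2 annotated starts in the table, and its matches, at 104 and 46 bases before the start, lie in the downstream promoter, which is in an intron of the longer transcripts. The CCAAT box, searched as CCAAT on both strands, was found in *H2afz*, *H2afv*, *H3f3a* and *H3f3b*, or 4 of the 9 genes, against 33.8% of all promoters. *H2afv* and *H3f3b* had 4 matches each. The promoters of *Cdkn1a* and *H1f0*, the genes best known for a response to butyrate, are shown with GC boxes in capitals:
*Cdkn1a*, chr17:29093519-29093768, plus strand: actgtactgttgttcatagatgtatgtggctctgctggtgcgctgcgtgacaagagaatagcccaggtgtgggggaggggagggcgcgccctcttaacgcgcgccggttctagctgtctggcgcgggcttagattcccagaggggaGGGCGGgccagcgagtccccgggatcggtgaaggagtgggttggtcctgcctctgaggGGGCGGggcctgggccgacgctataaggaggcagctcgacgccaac
*H1f0*, chr15:79027962-79028211, plus strand: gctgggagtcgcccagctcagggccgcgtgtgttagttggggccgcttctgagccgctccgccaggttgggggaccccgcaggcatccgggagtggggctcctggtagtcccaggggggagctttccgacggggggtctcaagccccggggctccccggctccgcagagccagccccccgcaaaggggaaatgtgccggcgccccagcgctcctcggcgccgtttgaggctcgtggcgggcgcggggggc
The *H1f0* stretch had 0 matches to either motif, and GENCODE M21 places the start of *H1f0* 238 bases further downstream. For other genes the RefSeq start lies downstream of the GENCODE one and the window runs into exons of the gene itself, by 250 of its bases in *H2afy2*, 214 in *H3f3b*, 155 in *H1fx*, 99 in *H3f3a* and 81 in *H2afy*, so these windows are not wholly upstream sequence. A match is a match of letters and says nothing of binding in these hearts.

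To compare levels between genes, counts were divided by the size factor of each library (normalized counts) and by the exonic length in kilobases. This length joins the exons of all annotated transcripts of a gene, so the order of the genes depends on the annotation. *H1f0*, the replacement linker histone of resting and differentiated cells, had the highest level, with 1107 ± 32.4 normalized counts per kb (SD over the 6 libraries). *H2afv* followed with 762 ± 51.0 and *H3f3b* with 623 ± 40.9. *H2afz* (331 ± 28.1), *Cdkn1a* (284 ± 65.1) and *H3f3a* (234 ± 17.1) formed a middle group. *H2afx*, whose protein is phosphorylated at DNA breaks, was at 125 ± 18.3, *H2afy* (macroH2A1) at 101 ± 6.63, *H2afy2* (macroH2A2) at 58.6 ± 8.85, and the linker histone *H1fx* was lowest with 20.3 ± 4.35. Within each related pair, *H1f0* exceeded *H1fx*, *H2afv* exceeded *H2afz*, *H3f3b* exceeded *H3f3a* and *H2afy* exceeded *H2afy2* with no overlap over the 6 libraries. Of the neighbours in the order, *H2afz* and *Cdkn1a* overlapped, with 4 of 6 libraries in the order of the means, and so did *Cdkn1a* and *H3f3a*, with 4 of 6. *H2afx* was above *H2afy* in 6 of 6 libraries, although the ranges of both genes overlapped. Before division by length their order was the reverse. The vehicle means were 169 normalized counts for *H2afx* (1384 bases) and 685 for *H2afy* (6809 bases). All other neighbours lay apart.

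**Figure D1:**
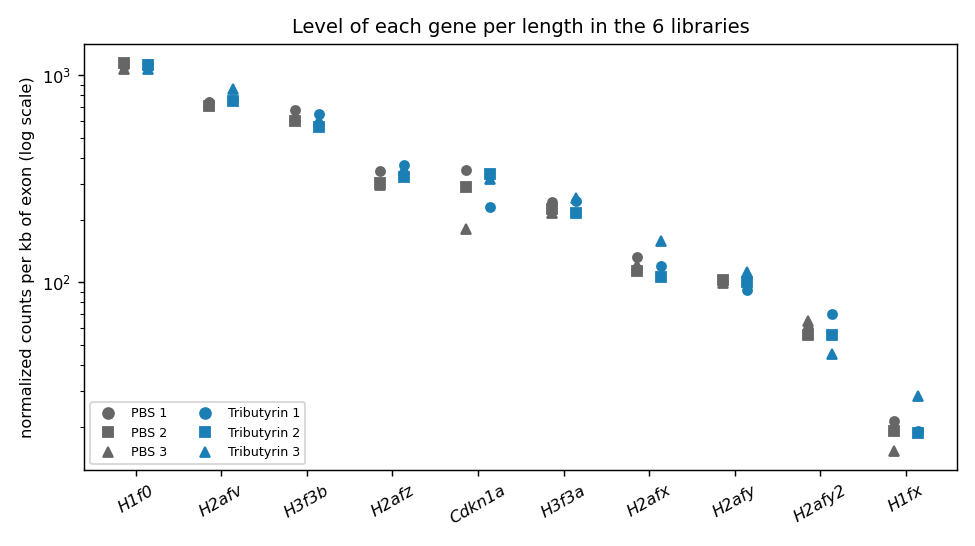
Normalized counts per kb of exon (log scale) of each gene, in order of the mean, with 1 point per library (grey, vehicle; blue, Tributyrin; shapes, replicate numbers). *H1f0* sits at about 1107 and *H1fx* at about 20.3, and the points of both groups lie together within each gene, with the widest spread in *Cdkn1a*, *H2afx*, *H2afy2* and *H1fx*.

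The linker histones bind the DNA that enters and leaves the nucleosome. *H1f0* (ENSMUSG00000096210, chromosome 15, 79028450 to 79030504, plus strand, exonic length 2055 bases) had 2270.1, 2347 and 2199 normalized counts in the vehicle mice and 2342, 2299.8 and 2197 in the Tributyrin mice. The ranges lay on top of each other, and the means were 2272 ± 74.1 and 2279 ± 74.5 (SD, n = 3). This is a log2 fold change of 0.01 (SE 0.068, 95% interval -0.15 to 0.16), or a fold change between 0.904 and 1.11. With 1770 to 3027 reads per library and a coefficient of variation of 2.93% over the 6 libraries, *H1f0* was the steadiest of the 10 genes.

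*H1fx* (ENSMUSG00000044927, chromosome 6, 87980421 to 87981637, minus strand) encodes H1.10, a divergent linker histone. It had 26.0, 23.3 and 18.6 normalized counts with vehicle and 23.4, 22.8 and 34.4 with Tributyrin. Tributyrin replicate 3 was highest and the other 5 libraries were mixed. Its log2 fold change was 0.23 (SE 0.30, 95% interval -0.44 to 0.89), and without Tributyrin replicate 3 it was 0.03. From 15 to 30 reads were counted per library, for which counting alone gives a relative SD of up to 25.8%, and the interval spans fold changes from 0.739 to 1.86.

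H2A.Z is the variant placed at the nucleosomes beside active promoters. *H2afz* (ENSMUSG00000037894, chromosome 3, 137864487 to 137866922, plus strand) had 610.1, 538 and 527 normalized counts with vehicle and 653, 572 and 624 with Tributyrin. The groups overlapped, since Tributyrin replicate 2 lay below vehicle replicate 1. The log2 fold change was 0.14 (SE 0.09, 95% interval -0.06 to 0.35). *H2afv* (ENSMUSG00000041126, chromosome 11, 6427229 to 6444443, minus strand) had 1212, 1166 and 1205 normalized counts with vehicle and 1247, 1234 and 1405 with Tributyrin. Every Tributyrin mouse was above every vehicle mouse, by the narrow margin of 1234 to 1212 between the nearest 2 mice, and Tributyrin replicate 3 was the highest. This gave a log2 fold change of 0.12 (SE 0.08, 95% interval -0.05 to 0.29), and the two-sided exact permutation test of the normalized counts gave p = 0.1, below which 6 mice in groups of 3 cannot go. *H2afv* was the only one of the 10 genes whose groups did not overlap, and 8.91% of the 14133 genes tested had groups that did not overlap (4.26% with Tributyrin higher and 4.65% lower). With counts scaled by library size alone its groups overlapped and its log2 fold change was 0.04, and without Tributyrin replicate 3 it was 0.06.

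*H2afx* (ENSMUSG00000049932, chromosome 9, 44334694 to 44336077, plus strand) had 183, 157 and 168 normalized counts with vehicle and 166, 147 and 219 with Tributyrin. The Tributyrin mice held both the lowest and the highest value. The log2 fold change was 0.06 (SE 0.16, 95% interval -0.29 to 0.42), and it was -0.11 without Tributyrin replicate 3. The gene shares 50-base stretches with 43 genes, among them replication-dependent H2A genes such as *Hist1h2ab*, which had 0 counts, and *Hist1h2ac*, which had 10 to 23.

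MacroH2A carries a large globular domain beside its histone fold and is known for its place on repressed chromatin, the inactive X chromosome included. *H2afy* (ENSMUSG00000015937, chromosome 13, 56073619 to 56136361, minus strand) had 683, 701 and 672 normalized counts with vehicle and 623, 679.8 and 762 with Tributyrin. The vehicle mice lay between the lowest and the highest Tributyrin mouse. Tributyrin and vehicle differed by 0.0045 on the log2 scale (SE 0.090, 95% interval -0.20 to 0.20). *H2afy2* (ENSMUSG00000020086, chromosome 10, 61738665 to 61784147, minus strand) had 129.9, 121 and 142 normalized counts with vehicle and 153, 122 and 97.5 with Tributyrin. Its Tributyrin mice were again more spread than its vehicle mice, with replicate 1 highest and replicate 3 lowest, the opposite of *H2afy*. The log2 fold change was -0.06 (SE 0.18, 95% interval -0.46 to 0.33), and it was 0.08 without Tributyrin replicate 3.

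H3.3 is laid down outside replication, at active genes by the HIRA complex and at telomeres and repeats by ATRX and DAXX. *H3f3a* (ENSMUSG00000060743, chromosome 1, 180800832 to 180813943, minus strand) had 854, 795 and 759 normalized counts with vehicle and 868, 754 and 896 with Tributyrin. Tributyrin replicate 2 was below all vehicle mice and the other Tributyrin mice were above them. The log2 fold change was 0.06 (SE 0.09, 95% interval -0.13 to 0.26). *H3f3b* (ENSMUSG00000016559, chromosome 11, 116021912 to 116027962, minus strand) had 2025, 1796 and 1871 normalized counts with vehicle and 1946, 1677 and 1817 with Tributyrin. The ranges overlapped over most of their width, and the log2 fold change was -0.06 (SE 0.08, 95% interval -0.24 to 0.12). It was -0.0095 without vehicle replicate 1, -0.012 without Tributyrin replicate 2, -0.10 without vehicle replicate 2 and -0.11 without Tributyrin replicate 1.

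The protein of *Cdkn1a*, p21, holds cyclin-dependent kinases inactive and is a target of p53 and of several stress signals. *Cdkn1a* (ENSMUSG00000023067, chromosome 17, 29090976 to 29100727, plus strand) had 1239, 1024 and 645 normalized counts with vehicle and 821, 1189.6 and 1127 with Tributyrin. Vehicle replicate 3 was lowest, vehicle replicate 1 was highest, and all 3 Tributyrin mice lay between them. The means were 969 ± 301 with vehicle and 1046 ± 197 with Tributyrin (SD, n = 3). Between them the log2 fold change was 0.11 (SE 0.21, 95% interval -0.35 to 0.56), or a fold change between 0.783 and 1.48. Among the 10 genes *Cdkn1a* had the widest spread between mice, with a coefficient of variation of 23.0% over the 6 libraries, although 519 to 1320 reads were counted per library and counting alone gives at most 4.39%. Its sign turned when either of 2 mice was left out. The log2 fold change was -0.11 without vehicle replicate 3, -0.0015 without Tributyrin replicate 2 and 0.32 without vehicle replicate 1.

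**Figure D2:**
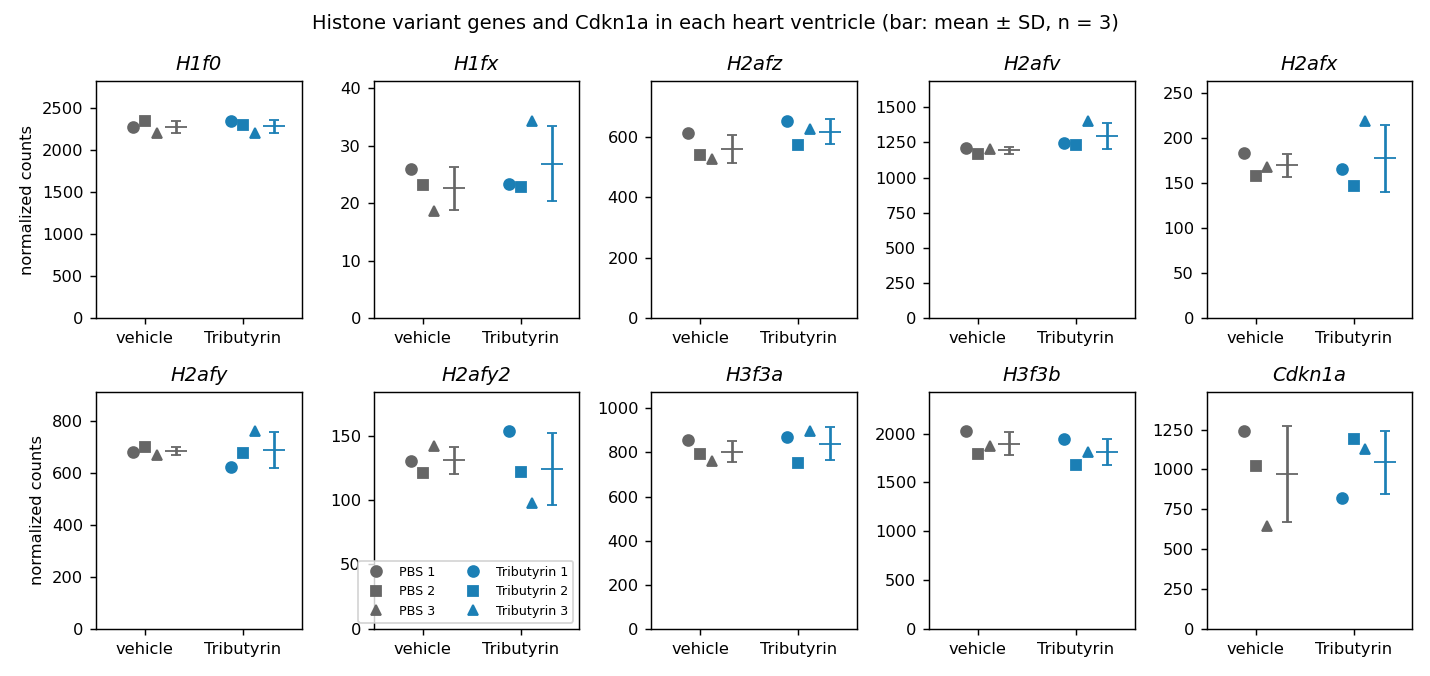
Normalized counts of each gene in each mouse, with vehicle in grey, Tributyrin in blue, the replicate number as the shape of the point, and the mean ± SD (n = 3) as a bar. The groups overlap in 9 genes, the Tributyrin mice lie just above the vehicle mice in *H2afv*, and *Cdkn1a* spreads from 645 to 1239 among the vehicle mice alone.

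By the quasi-likelihood test of edgeR, adjusted after Benjamini and Hochberg over all genes, 0 of the 10 genes passed an FDR of 10%, and so did 0.0% of the 14133 genes tested. The adjusted p of the 10 genes was between 0.9988 and 0.9992 in that test. DESeq2 gave 0.9999 for all 10. At an unadjusted p under 0.05 in edgeR there were 0 of the 10 genes, against 4.25% of all genes tested (1.97% higher and 2.28% lower with Tributyrin). Among the 10 genes the smallest unadjusted p in edgeR was 0.153, for *H2afv*. Of the 10 log2 fold changes 8 were above 0, as were 49.6% of all genes, and their median was 0.06 against 0.00 (-0.0013) for all genes. These directions depended on the scaling. With library size alone the median of all genes moved by -0.07, and 4 of the 10 genes were above 0, namely *H1fx*, *H2afz*, *H2afv* and *Cdkn1a*. The median SE over all genes was 0.12, and *H1f0*, *H2afz*, *H2afv*, *H2afy*, *H3f3a* and *H3f3b* were each measured more precisely than that.

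**Figure D3:**
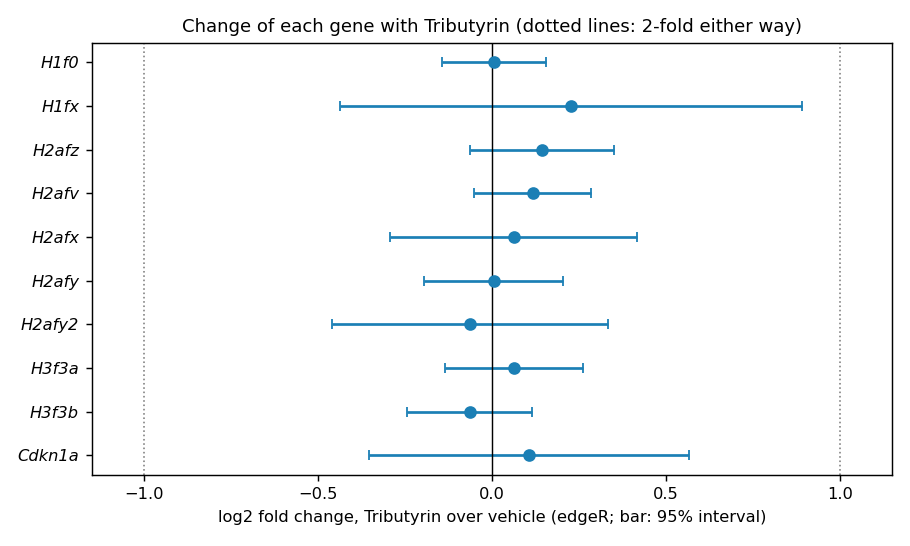
Log2 fold change of each gene with Tributyrin over vehicle (points) and its 95% interval from the edgeR model (bars). Every interval spans 0 and stays inside the dotted lines at 2-fold, with the narrowest for *H1f0* (-0.15 to 0.16) and the widest for *H1fx* (-0.44 to 0.89).

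A ratio of 2 genes within a library does not depend on how libraries are scaled, so the balance within each related pair was compared as well. It is a ratio of counts and not of levels per length. The ratio of *H3f3b* to *H3f3a* was 2.37, 2.26 and 2.46 with vehicle and 2.24, 2.22 and 2.03 with Tributyrin. Every Tributyrin mouse was below every vehicle mouse, though the nearest mice differed by little. The log2 ratio differed by -0.13 (SE 0.059), and it stayed between -0.16 and -0.08 with each mouse left out. The two-sided exact permutation test gave p = 0.1, the smallest that the design allows, and p = 0.5 after Benjamini-Hochberg adjustment over the 5 ratios, so this ratio did not pass the test.

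The other 4 ratios overlapped between the groups. *H2afz* to *H2afv* was 0.503, 0.461 and 0.437 with vehicle and 0.524, 0.464 and 0.444 with Tributyrin, a log2 difference of 0.03 (SE 0.09, exact permutation p = 0.6). *H2afy* to *H2afy2* was 5.26, 5.79 and 4.75 with vehicle and 4.06, 5.59 and 7.81 with Tributyrin, a log2 difference of 0.10 (SE 0.28, exact permutation p = 0.8). The Tributyrin mice held both ends of this range. *H1f0* to *H1fx* differed by -0.23 on the log2 scale (SE 0.25, exact permutation p = 0.4), and by -0.013 without Tributyrin replicate 3. *Cdkn1a* to *Cdkn1b*, the gene of the related inhibitor p27, was 1.17, 1.01 and 0.595 with vehicle and 0.741, 1.05 and 1.05 with Tributyrin, a log2 difference of 0.07 (SE 0.34, exact permutation p = 0.8). Adjusted over the 5 ratios, p was 0.8 for each of these 4 in the exact permutation test.

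**Figure D4:**
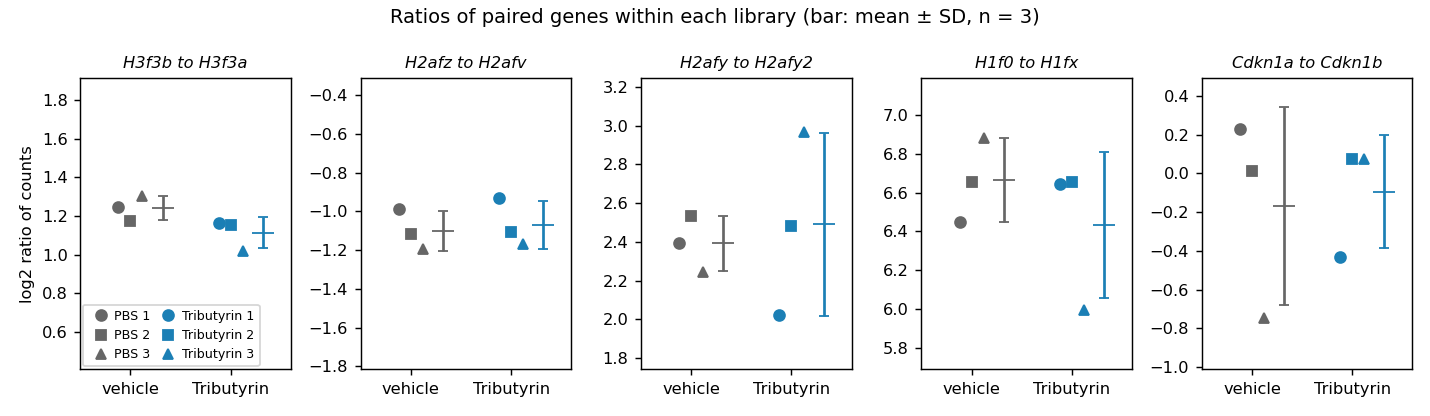
Log2 ratio of counts of paired genes within each library, with vehicle in grey, Tributyrin in blue and mean ± SD (n = 3) as bars; every panel spans the same range of log2 ratio. The ratio of *H3f3b* to *H3f3a* is lower in all 3 Tributyrin mice (log2 difference -0.13), and in the other panels the groups overlap.

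Of 22 genes whose proteins carry and place histone variants (chaperones and exchangers) 21 were tested, of which 7 were above 0 and 14 below. The log2 fold changes ran from -0.23 to 0.36 with a median of -0.02 (-0.09 with library size alone), and 0 passed an FDR of 10% (edgeR). *Hira* (-0.01, SE 0.16), *Daxx* (-0.10, SE 0.11) and *Atrx* (-0.01, SE 0.10), which place H3.3, and *Srcap* (-0.13, SE 0.27) and *Anp32e* (-0.05, SE 0.07), which insert and remove H2A.Z, had intervals that span 0. *Cabin1*, a subunit of the HIRA complex, had 854, 851 and 873 normalized counts with vehicle and 700.4, 811 and 744 with Tributyrin. It was the only one of the 21 with an unadjusted p under 0.05 (0.0393 in edgeR's model across genes), at a log2 fold change of -0.19 (SE 0.08). Of all genes tested, 4.25% had an unadjusted p under 0.05. Of 9 genes of histone mRNA 3′ end processing, which the replication-dependent histones need, 8 were tested. Their median was 0.00 (0.0041) and 0 had an unadjusted p under 0.05, and *Slbp*, which binds the histone stem-loop, was at 0.01 (SE 0.13).

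Among other histone genes the H2A variant *H2afj* had 179.8, 185 and 166 normalized counts with vehicle and 216, 198 and 216 with Tributyrin. The groups lay apart, with a log2 fold change of 0.24 (SE 0.11, unadjusted p = 0.0577 in edgeR). Groups did not overlap in 8.91% of all genes tested (4.26% with Tributyrin higher). *Cenpa*, the H3 variant of centromeres, was at 0.13 (SE 0.16). The other variant tested, *Hils1*, was at -0.53 (SE 0.57), from 6 to 26 reads per library. *H2afb1*, *H2afb2*, *H2afb3*, *H1fnt* and *H1foo*, known from germ cells, had 0 counts. Of 70 replication-dependent histone genes, whose transcripts mostly lack the poly(A) tail that this library kit selects, 13 passed the filter. Their median log2 fold change was 0.05 (-0.02 with library size alone), and 0 passed an FDR of 10% in edgeR. *Hist2h2be* had 179, 191 and 199 normalized counts with vehicle and 249.7, 225 and 224 with Tributyrin, with a log2 fold change of 0.30 (SE 0.11, unadjusted p = 0.0232 in edgeR). It was the only one of the 13 with an unadjusted p under 0.05, against 4.25% of all genes tested. *Hist1h1c*, the linker histone gene with the most counts among them, was at 0.12 (SE 0.09).

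Of 7 other CDK inhibitor genes 5 were tested, with a median of 0.03 (-0.04 with library size alone) and a range from -0.57 for *Cdkn2b*, which had 4 to 19 reads, to 0.20 (SE 0.14) for *Cdkn1c*. *Cdkn1b* was at 0.07 (SE 0.07), and 0 of the 5 had an unadjusted p under 0.05 in edgeR. Of 19 genes of the p53 pathway 18 were tested, with a median of 0.01 (-0.07 with library size alone) and a range from -0.61 to 0.12. *Trp53*, which encodes p53 itself, had 363, 319 and 352 normalized counts with vehicle and 275, 291 and 271 with Tributyrin, and a log2 fold change of -0.30 (SE 0.10, unadjusted p = 0.0139 in edgeR). It was the only one of the 18 with an unadjusted p under 0.05, against 4.25% of all genes tested, and 0 of the list passed an FDR of 10%. The p53 targets *Mdm2* (0.05, SE 0.07) and *Ccng1* (0.10, SE 0.08) had intervals that span 0. The lowest of the list was *Eda2r* (-0.61, SE 0.325), from 26 to 79 reads per library, with groups that overlapped. Of the 18 genes 10 were above 0 and 8 below.

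*Cdkn1a* is also known as a target of the glucocorticoid receptor. The 9 glucocorticoid-induced genes had a median of 0.06 (-0.03 with library size alone) and 0 with an unadjusted p under 0.05 in edgeR, but single genes varied widely between mice. *Zbtb16* had 637, 3069 and 4635 normalized counts with vehicle and 452, 3216 and 4116 with Tributyrin, and *Fkbp5* 939.6, 1851 and 1344 with vehicle and 572, 1372 and 2721 with Tributyrin. Replicate 1 was the lowest of its group for both genes, while for *Cdkn1a* replicate 1 was the highest of the vehicle mice and the lowest of the Tributyrin mice, and a relation of *Cdkn1a* to these genes was not tested. Of the 13 G1 cyclins, CDKs and pocket proteins, on which p21 acts directly or indirectly, the median was -0.05 (-0.12 with library size alone) and 0 had an unadjusted p under 0.05. Above 0 were 4 and below 0 were 9. In 2 of the 13 the groups did not overlap, with Tributyrin lower, against 4.65% of all genes tested. *Ccnd1* was at -0.22 (SE 0.16) and *Ccne1* at -0.53 (SE 0.25), the latter from 22 to 47 reads per library.

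**Figure D5:**
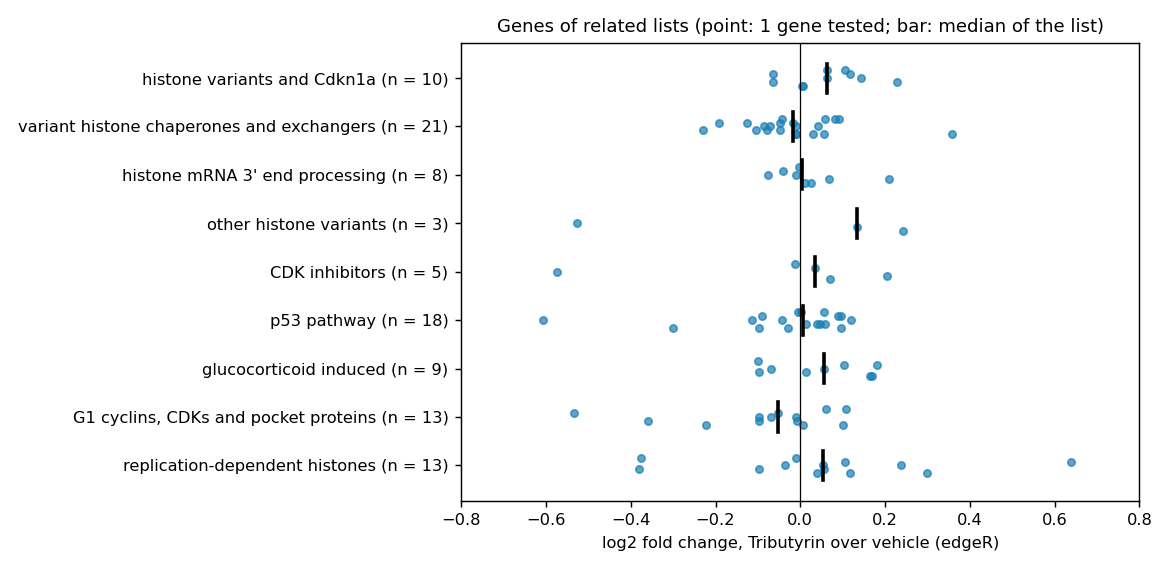
Log2 fold change of each tested gene of the related lists (points) and the median of each list (bars), Tributyrin over vehicle. Every median lies between -0.05 for the G1 cyclins, CDKs and pocket proteins and 0.13 for the 3 other histone variants tested.

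The genes whose log2 CPM followed *H1f0* and *Cdkn1a* most closely over the 6 libraries were sought among the 9699 tested genes with a mean CPM of at least 5. For *H1f0* they were *Galnt17* (Pearson's r = 0.996), *Snx19* (0.966) and *Ring1* (0.961). For *Cdkn1a* they included *Gabpb1* (0.991) and *Myd88* (0.982). *Gabpb1* had 252.6, 237 and 204 normalized counts with vehicle and 224, 245 and 248 with Tributyrin, a narrower range than *Cdkn1a* with the same lowest mouse. These are the highest of many correlations over 6 points that share their libraries and depth, and they are given as a description.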

How the data were processed

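Ventricle RNA of 3 Tributyrin and 3 vehicle mice was sequenced as stranded, poly(A)-selected libraries with single-end 50-base reads. The authors removed adapters, poor reads and rRNA reads, aligned with STAR and deposited whole-number counts per Ensembl gene from HTSeq, without normalization. The submitters' processing notes name mm10, cutadapt 1.13, HTSeq 0.6.1p1 and DESeq2 1.14.1, while for the annotation release and the strandedness of counting no source used here gives a value. Of 54232 identifiers 54165 matched GENCODE M21, 0 lines named no gene, and library totals are given above.

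Groups were taken from the labels. The test was edgeR's quasi-likelihood test (edgeR 4.0.16, R 4.3.3) with TMM scaling, filterByExpr (minimum count 10, minimum total 15), no covariate and Benjamini-Hochberg adjustment over 14133 genes. SE is the log2 fold change divided by the square root of F, and intervals are at 95%. Normalized counts are counts divided by DESeq2 (1.42.0) size factors. For ratios the test was a two-sided exact permutation test. All pairs of libraries differed by more than sampling noise (chi-square per degree of freedom of at least 7.40). Separate animals are named by the labels only as numbered mice, and p-values measure the spread between these samples.

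The genes and lists were chosen with earlier results of these data known. The genes named are the 10 genes, list members with an unadjusted p under 0.05 (at most 4 a list) or needed to describe a list, the 3 genes most correlated with *H1f0* and with *Cdkn1a*, and genes that share 50-base stretches. *H2afj*, *Hils1*, *Ccnd1*, *Ccne1*, *Cdkn1c*, *Cdkn2b*, *Eda2r*, *Zbtb16*, *Fkbp5* and the cell type markers described singly were named after their values were seen. Values of some single genes within this rule are left out. Steps were tested on simulated data. The alternatives were other scalings, filters and tools (limma 3.58.1), the replicate number as a block, and each mouse left out.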

Additional observations from a re-analysis of the deposited data

How the results depend on the processing

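No gene of the 10 passed an FDR of 10% or 5% under any alternative run. Of their 138 log2 fold changes under alternatives, 124 kept their direction and 14 changed sign, 9 of these with a mouse left out. With library size alone the value was -0.066 for *H1f0*, -0.013 for *H2afx*, -0.069 for *H2afy* and -0.0098 for *H3f3a*, and with limma-voom -0.0042 for *H2afy*. With each mouse left out the values ran from -0.016 to 0.036 for *H1f0*, -0.11 to 0.18 for *H2afx*, -0.068 to 0.077 for *H2afy*, -0.24 to 0.081 for *H2afy2*, -0.11 to 0.32 for *Cdkn1a*, 0.028 to 0.34 for *H1fx*, 0.10 to 0.22 for *H2afz*, 0.060 to 0.15 for *H2afv*, 0.019 to 0.13 for *H3f3a* and -0.11 to -0.0095 for *H3f3b*. The log2 differences of ratios ran from -0.040 to 0.084 for *H2afz* to *H2afv*, -0.14 to 0.33 for *H2afy* to *H2afy2*, -0.34 to -0.013 for *H1f0* to *H1fx* and -0.21 to 0.27 for *Cdkn1a* to *Cdkn1b*. With library size alone 0 of the 10 genes had groups that did not overlap, and the list medians were -0.088 for chaperones, -0.068 for 3′ end processing, -0.039 for CDK inhibitors, -0.067 for the p53 pathway and -0.018 for replication-dependent histones. They were -0.026 for the glucocorticoid-induced genes, -0.12 for the G1 cyclins, CDKs and pocket proteins, and 0.061 for the other histone variants. Over all genes, the count past an FDR of 10% was 167 without the low-count filter, 11 with DESeq2 and 0 to 3 with a mouse left out, and at 5% it was 140, 5 and 0 to 3; the cause was not tested. At an unadjusted p under 0.05 it was 1178 without the filter, 367 with a mean CPM of at least 5, 389 without vehicle replicate 3 and 1360 without Tributyrin replicate 2. *H1fx* and *H2afy2* have no value at a mean CPM of at least 5, which removed them.

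Samples of the same number correlated in their deviations from the group means by 0.27, 0.06 and 0.00 (0.0016). Samples of different numbers correlated by -0.25 to 0.18, so 0.27 was the largest value. The labels name no pairs and the main test took none, and these correlations do not decide whether the numbers mark pairs. With the replicate number as a block, 2 genes passed 10% and 0 passed 5%, none of the 10 among them. *Cdkn1a* was then at 0.13 and *H1f0* at 0.01, and the ratio of *H3f3b* to *H3f3a* at -0.13.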
